A study of Mus musculus with 12 samples.

Results

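This comparison sets ear skin of Card14-/- mice against ear skin of Tlr7-/-Tlr9-/- mice, both 4 h after imiquimod (IMQ) cream. Its arrays were taken by the sample labels and are 4 of the 12 of the series: 2 of IMQ Card14-/- and 2 of IMQ Tlr7-/-Tlr9-/-. The comparison, its members and the gene lists were chosen with earlier results of these data known. All mice were of the strain C57BL/6J, and on every treated animal both ears received 62.5 mg of a cream with 5% imiquimod. The labels name no alteration of Tlr7 or Tlr9 in the Card14-/- mice and none of Card14 in the Tlr7-/-Tlr9-/- mice. The 2 groups therefore differ at all 3 genes, and neither is a wild-type control. Each array received 200 ng of whole-ear RNA pooled from 6 to 8 mice, so the spread between animals was not measured. No label says whether both arrays of a group were made from the same pool. The p-values therefore cover only array-to-array spread, which may be technical. There was no cream without imiquimod, and the sex and age of the mice are not given. In bulk skin, fewer cells of a type and less RNA per cell cannot be told apart. Single untreated arrays of both genotypes (1 each) and single IMQ arrays of wild type (WT), Tlr7-/- and Tlr9-/- are used for values only.

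Imiquimod is a small-molecule ligand of TLR7, an endosomal receptor that senses single-stranded RNA, and TLR9 is its neighbour in the same compartment that senses DNA with CpG motifs. Both signal through the adaptor MYD88 to IRF7, which drives type I interferon, and to NF-kB, which drives inflammatory cytokines; plasmacytoid dendritic cells are a known source of such interferon in skin. Secreted interferon then acts on neighbouring cells through its receptor and switches on interferon-stimulated genes. CARD14 is a scaffold of keratinocytes that assembles BCL10 and MALT1 and activates NF-kB, and gain-of-function alleles of it are known in psoriasis. By their labels, the 2 genotypes thus set a skin that keeps TLR7 and TLR9 but lacks the keratinocyte scaffold against one that has the scaffold but lacks both receptors.

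Values are normalized log2 intensities, so a difference of 1 is a 2-fold difference. A gene was called at an adjusted p under 0.05 (limma, Benjamini-Hochberg over all 24068 genes tested) together with a difference of at least 1. On the 4 arrays 60.1% to 63.2% of the 59305 spots were well above background and 0 were saturated. The 4 arrays lay on 1 slide with the groups alternating along a row. The median SD between repeat arrays was 0.0476 for Card14-/- and 0.0469 for Tlr7-/-Tlr9-/-, against 0.149 between the untreated pools of the 5 genotypes. Repeated spots of a probe within 1 of the 4 arrays had a median SD of 0.0457 to 0.0584. For 295 probes with repeated spots, the SD between repeat arrays was 0.0125 in Card14-/-, where spot noise alone gives 0.0120. In Tlr7-/-Tlr9-/- it was 0.0151, against 0.0103 from spot noise. The SEs and p-values below thus measure a spread near that of spots. An exact permutation of 2 arrays against 2 cannot give a two-sided p below 0.333, so calls rest on the limma fit across all genes. Groups of 2 arrays are often separate without a true difference, and a call already needs close repeats. Statements below that groups were separate or did not overlap thus describe the values and add no support. The share of all genes with separate groups was not counted. Keratinocyte markers were high on the 4 arrays: Krt14, the keratin of basal cells, read 18.29 to 18.32, and Krt10, the keratin of suprabasal cells, 17.92 to 18.18. These levels lie at the top of the scale, where quantile normalization gives all arrays the same set of values, so they show that the markers are present and not whether their amounts are equal.

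The targeted genes were read first. On the Tlr7 probe at chrX:163742863-163742922 (mm9), the Tlr7-/-Tlr9-/- arrays read 5.85 and 5.68 and the Card14-/- arrays 8.08 and 8.11. The groups did not overlap, and Tlr7 was higher in Card14-/- by 2.33 ± 0.08 (SE; 5.03-fold, adjusted p = 0.00742). On the Card14 probe at chr11:119206302-119206361 (mm9), the Tlr7-/-Tlr9-/- arrays read 11.45 and 11.45 and the Card14-/- arrays 9.68 and 9.63. Card14 was lower in Card14-/- by 1.80 ± 0.04 on the log2 scale (3.48-fold, adjusted p = 0.00316), which leaves signal well above background on both knockout arrays. The Tlr9 probe at chr9:106128979-106129038 (mm9) read 11.33 and 11.28 in Tlr7-/-Tlr9-/- and 11.27 and 11.30 in Card14-/-. Its arrays overlapped, its difference was -0.01 ± 0.04 (adjusted p = 0.848), and this probe does not check the label of a Tlr9 knockout. In which exon or untranslated region these probes lie was not analysed here.

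Transcripts of sex-linked genes also differed between the groups. A probe listed as XIST, the X-inactivation transcript of female cells, read 10.45 and 10.45 in Tlr7-/-Tlr9-/- and 11.87 and 12.04 in Card14-/-, a difference of 1.51 ± 0.07 (2.84-fold, adjusted p = 0.0141). The Y-linked genes Eif2s3y and Ddx3y were above background on all 4 arrays, so both groups gave signal of X-inactivation and of the Y chromosome. The difference of XIST between the untreated arrays of the same genotypes was -0.10. What these values contribute to the differences described here was not tested.

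In skin treated with imiquimod, 293 genes (1.22% of those tested) were higher in Card14-/- than in Tlr7-/-Tlr9-/-, and 57 (0.237%) were lower. Of these, 4 higher and 5 lower genes were not well above background on any of the 4 arrays, so their calls rest on signal below background. Of the 293 genes, 62 stood in the hair follicle lists and 28 in the interferon lists, and of the 57 genes, 12 stood in the list of antimicrobial and stress keratinocyte genes. The median difference over all genes was -0.03. Without the size limit 611 genes were higher and 440 lower, and at an unadjusted p under 0.05 these numbers were 2848 and 3810. Leaving out 1 array leaves 1 residual degree of freedom and moved the counts strongly: 0 higher and 0 lower without Card14-/- replicate 2 (smallest adjusted p 0.0506; 1930 and 2489 at an unadjusted p under 0.05), 49 and 1 without Card14-/- replicate 1, 174 and 22 without Tlr7-/-Tlr9-/- replicate 1, and 175 and 23 without Tlr7-/-Tlr9-/- replicate 2. The higher genes called in these smaller fits were mostly among the 293, but the lower ones were mostly not among the 57. The sizes of the called differences moved little, but this was set in advance. The genes were called on these same 4 arrays, and a call needs repeat arrays that lie close together. The median over the 62 hair follicle genes was 4.98 with all 4 arrays and lay between 4.97 and 4.99 without any 1 of them, and that over the 28 interferon genes was 1.94 with all arrays and between 1.93 and 1.95 without 1.

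**Figure D1:**
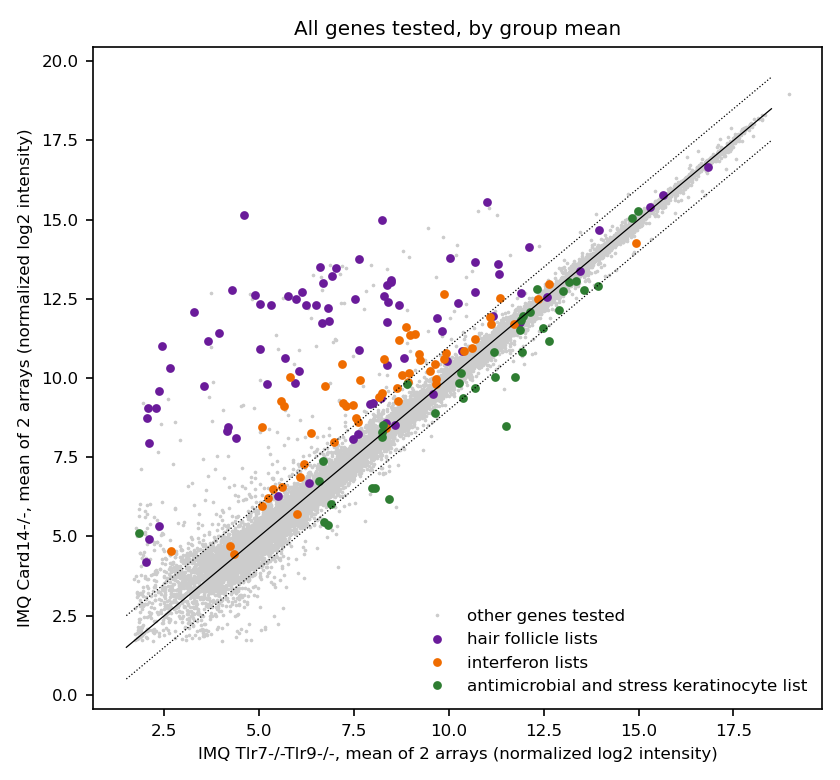
Each point is 1 of the 24068 genes tested, with its mean over the 2 IMQ Tlr7-/-Tlr9-/- arrays on the x axis and over the 2 IMQ Card14-/- arrays on the y axis, both in normalized log2 intensity; coloured points mark the tested members of the 3 groups of lists, the solid line equal levels and the dotted lines a difference of 1. The 62 called hair follicle genes lie above the upper dotted line, by up to 10.55, as do the 28 called interferon genes, and 12 stress keratinocyte genes lie below the lower one.

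The largest differences were in genes of the hair follicle, which were higher in Card14-/-. The hair follicle builds a keratin shaft inside a supporting inner root sheath. Shaft cells of a growing follicle make hair keratins, which assemble in type I and type II pairs, and the sulphur-rich keratin-associated proteins (KAPs) that crosslink them. Inner root sheath cells make a keratin set of their own and trichohyalin, which is hardened by peptidylarginine deiminases and transglutaminases. Over all genes tested 1.22% were higher and 0.237% lower. Of 84 tested genes in the 3 follicle lists, 62 were higher in Card14-/- and 0 were lower, with a median difference of 4.98 over those 62 and a range from 1.15 to 10.55. Of these 62 genes, 45 were above background on all 4 arrays, 13 were not well above background on either Tlr7-/-Tlr9-/- array, and 4 were so on only 1 of them. The lists held 55 higher genes without either Tlr7-/-Tlr9-/- array, 15 without Card14-/- replicate 1 and 0 without Card14-/- replicate 2.

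Of 13 tested hair shaft keratins 12 were higher, with a median over the list of 5.07, or 4.80 with genes below background set at their bound. Krt33a, a type I hair keratin whose probe lies at chr11:99872578-99872637 (mm9), read 6.91 and 6.93 in Tlr7-/-Tlr9-/- and 13.18 and 13.24 in Card14-/-. The arrays of each group lay close together and far from the other group, and the difference was 6.28 ± 0.04 (SE; 77.9-fold, adjusted p = 0.000557). Krt31, another type I hair keratin, read 8.27 and 8.30 against 12.58 and 12.61 (difference 4.31 ± 0.03, 19.9-fold, adjusted p = 0.000557). Its groups were likewise separate. Among type II hair keratins, Krt86 was higher by 5.79 ± 0.10 (adjusted p = 0.00195), Krt83 by 5.07 ± 0.14 (adjusted p = 0.00536) and Krt81 by 1.68 ± 0.04 (adjusted p = 0.00399). Krt34 was higher by 6.53 ± 0.07 (adjusted p = 0.000799). Krt33b read 4.41 and 5.65 in Tlr7-/-Tlr9-/- against 12.37 and 12.33, a difference of 7.32 ± 0.49 (adjusted p = 0.025) with a wide gap between the 2 Tlr7-/-Tlr9-/- arrays. Krt35 was above background on only 1 Tlr7-/-Tlr9-/- array and differed by 7.72 ± 0.34 (adjusted p = 0.012). Where both Tlr7-/-Tlr9-/- arrays were not well above background only a bound can be given. The bound sets the mean of Card14-/- against, on each dim array, the lowest signal that was well above background or the probe's own signal, whichever was higher. Krt82 was at least 27.8-fold higher by this bound (adjusted p = 0.00895), and Krt87 at least 49.3-fold (adjusted p = 0.0184).

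Of 47 tested KAP genes 38 were higher in Card14-/-, with a list median of 4.19, or 4.02 at the bound. Krtap17-1, whose probe lies at chr11:99854656-99854715 (mm9), read 5.31 and 5.31 in Tlr7-/-Tlr9-/- and 12.29 and 12.33 in Card14-/-. Its difference was 6.996 ± 0.04 (SE; 128-fold, adjusted p = 0.000557). Krtap5-2 read 7.001 and 7.054 against 13.45 and 13.49 (6.44 ± 0.04, 86.9-fold, adjusted p = 0.000557). Neither gene had any overlap between the groups. Krtap5-1 was higher by 6.82 ± 0.07 (adjusted p = 0.000799), Krtap4-7 by 6.59 ± 0.11 (adjusted p = 0.00178) and Krtap11-1 by 6.34 ± 0.14 (adjusted p = 0.0033). Krtap28-13 was at least 230-fold higher (adjusted p = 0.000557), Krtap26-1 at least 110-fold (adjusted p = 0.0122) and Krtap12-1 at least 67.6-fold (adjusted p = 0.000871), all against Tlr7-/-Tlr9-/- arrays below background. KAP genes form families of near-identical copies, and 60-base probes may read more than 1 of them, so the number of separate genes is uncertain.

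Of 24 tested inner root sheath and other follicle genes 12 were higher, and the list median was 1.23. Krt27, a type I keratin of the inner root sheath, read 6.68 and 6.55 in Tlr7-/-Tlr9-/- and 13.49 and 13.50 in Card14-/- (6.88 ± 0.06, 118-fold, adjusted p = 0.000557). Krt71, the type II partner of the same cells whose probe lies at chr15:101564426-101564485 (mm9), read 15.16 and 15.16 in Card14-/-. In Tlr7-/-Tlr9-/- it read 4.96 on an array where it was well above background and 4.26 on one where it was not. The difference of 10.55 ± 0.28 (adjusted p = 0.00486) was the largest of all genes tested, and rests on a dim group at the edge of detection. Krt25 behaved alike, with 4.37 and 4.18, the second below background, against 12.74 and 12.79 (8.49 ± 0.09, adjusted p = 0.000754). Krt28 was higher by 6.13 ± 0.05 (69.9-fold, adjusted p = 0.000557). Krt26 was at least 40.7-fold higher on the probe used (adjusted p = 0.0174), while another of its probes differed by 2.25. Krt73 was higher by at least 22.6-fold against arrays below background (adjusted p = 0.000557). Tchh, which encodes trichohyalin, read 8.26 and 8.22 against 14.98 and 15.03 (6.77 ± 0.04, 109-fold, adjusted p = 0.000557). Padi3, a peptidylarginine deiminase that modifies trichohyalin, was at least 121-fold higher (adjusted p = 0.00637). Krt75, the keratin of the companion layer, was higher by 2.21 ± 0.05 (4.62-fold, adjusted p = 0.00399). S100a3, a calcium-binding protein of the hair cuticle, read 10.71 and 10.67 against 13.67 and 13.66 (2.97 ± 0.04, 7.85-fold, adjusted p = 0.000896).

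Of the regulators of the follicle described here, Hoxc13 and Lef1 were called. Hoxc13, a transcription factor that drives hair keratin genes, read 7.98 and 7.88 against 9.18 and 9.18 (1.25 ± 0.05, 2.38-fold, adjusted p = 0.0112). Lef1, the Wnt effector of hair matrix cells, read 7.92 and 8.09 against 9.28 and 9.16 (1.21 ± 0.09, 2.32-fold, adjusted p = 0.0281). Both groups were separate for these 2 genes. Msx2, a matrix homeobox gene, differed by 0.57 ± 0.05 (adjusted p = 0.041), under the size limit. Foxn1 and Gata3, which direct shaft and inner root sheath differentiation, differed by 0.22 ± 0.08 (adjusted p = 0.196) and 0.10 ± 0.04 (adjusted p = 0.212). Shh, a signal of hair matrix cells, read 2.01 and 2.02 against 4.57 and 3.79 (2.16 ± 0.31, adjusted p = 0.0668) and was not called. It was well above background on 1 of these 4 arrays. Krt72, a sheath keratin, differed by 0.81 ± 0.06 (adjusted p = 0.0306), also under the size limit. Outside the follicle lists, Vsig8, a membrane protein of shaft and nail cells, read 6.63 and 6.60 against 13.16 and 13.20 (6.56 ± 0.04, 94.6-fold, adjusted p = 0.000557). Dsg4, a desmosomal cadherin of the hair shaft, was at least 3.43-fold higher in Card14-/- (adjusted p = 0.00155), and Fgf5, a growth factor that ends hair growth, at least 1.70-fold (adjusted p = 0.00128).

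Many of these genes are neighbours in the genome. Chromosome 11 held 64 of the genes higher in Card14-/- among 1852 tested (3.46%), and chromosome 16 held 45 among 788 (5.71%), against 1.22% of all genes tested. Between positions 99177867 and 99963389 of chromosome 11 (mm9), which hold the type I keratin and KAP cluster, 43 of 58 tested genes were higher and 0 were lower. Of 27 genes in that span that are in no follicle list 16 were higher. Between 88611735 and 89570480 of chromosome 16, a KAP cluster, 34 of 40 tested genes were higher. Between 98602209 and 102759117 of chromosome 15, a wider span with the type II keratins, 10 of 150 tested genes were higher and 4 lower, and of 138 genes in no follicle list 1 was higher. These spans were drawn around the listed members, so their shares describe the same genes again.

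The promoters of a shaft gene and a sheath gene with large differences show what they share in sequence. The windows run from 250 bases before to 50 after the start that RefSeq lists (GRCm38.p6), 5′ to 3′ on the strand of the gene. Capitals mark TATAAA, a core promoter element that places the start of transcription, searched on both strands. Krtap17-1 lies on the minus strand at chr11:99993945-99994244, with the match starting at position -31. Krt71 lies on the minus strand at chr15:101743048-101743347, with the match at -40.
Krtap17-1: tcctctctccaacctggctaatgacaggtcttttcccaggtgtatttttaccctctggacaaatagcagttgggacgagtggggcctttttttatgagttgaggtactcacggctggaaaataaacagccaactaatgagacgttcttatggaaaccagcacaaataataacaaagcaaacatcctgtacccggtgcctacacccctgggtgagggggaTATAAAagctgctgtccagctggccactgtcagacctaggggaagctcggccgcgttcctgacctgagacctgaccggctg
Krt71: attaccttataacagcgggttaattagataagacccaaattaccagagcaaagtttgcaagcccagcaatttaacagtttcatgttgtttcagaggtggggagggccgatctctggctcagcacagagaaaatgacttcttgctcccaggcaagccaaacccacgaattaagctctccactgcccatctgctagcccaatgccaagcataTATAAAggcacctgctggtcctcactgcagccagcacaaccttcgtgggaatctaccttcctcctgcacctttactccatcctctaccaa

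TATAAA stood in 33 of 42 KAP promoters with a sequence (78.6%), in 5 of 7 hair shaft keratin promoters (71.4%), and in 7 of 18 of the sheath and follicle list. Of all 27025 RefSeq promoters 14.2% held it. A match is a description of these windows and shows no use of the site.

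The hair follicle difference was present in part before treatment. Between the single untreated arrays of the 2 genotypes, 61 of the 62 called follicle genes were above in Card14-/-, 42 of them by at least 1, with a median of 1.22. Over all genes 2.05% were above by at least 1 between these untreated arrays and 1.28% below. The median level of the 13 hair shaft keratins was 8.16 in untreated Tlr7-/-Tlr9-/- and 9.79 in untreated Card14-/-. After imiquimod it was 6.62 and 6.83 in Tlr7-/-Tlr9-/- and 12.31 and 12.27 in Card14-/-, so the 2 genotypes stood on opposite sides of their untreated arrays. Of the 62 genes, 33 lay at least 1 below the untreated array in Tlr7-/-Tlr9-/-, and 58 lay at least 1 above it in Card14-/-. In the arrays not used by this comparison, the same list had a median of 11.20 in IMQ WT, 10.11 in IMQ Tlr9-/- and 7.45 in IMQ Tlr7-/-. The untreated arrays of these genotypes read 10.01 in WT, 10.33 in Tlr9-/- and 11.91 in Tlr7-/-, the last above IMQ WT. Between IMQ WT and IMQ Tlr7-/-, 1 array each, 57 of the 62 genes differed by at least 1 with WT above, against 3.64% of all genes. These 2 arrays also differed on the XIST probe, with 12.24 in IMQ WT and 1.95 in IMQ Tlr7-/-. The untreated and IMQ arrays of both genotypes lay on different slides, so slide and treatment cannot be told apart in values set against the untreated arrays. IMQ WT, IMQ Tlr7-/- and IMQ Tlr9-/- lay on the slide of the untreated arrays. Where their levels are set against those of the 4 compared arrays, slide and genotype cannot be told apart. The part of the sex-linked difference in the follicle genes was not tested.

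**Figure D2:**
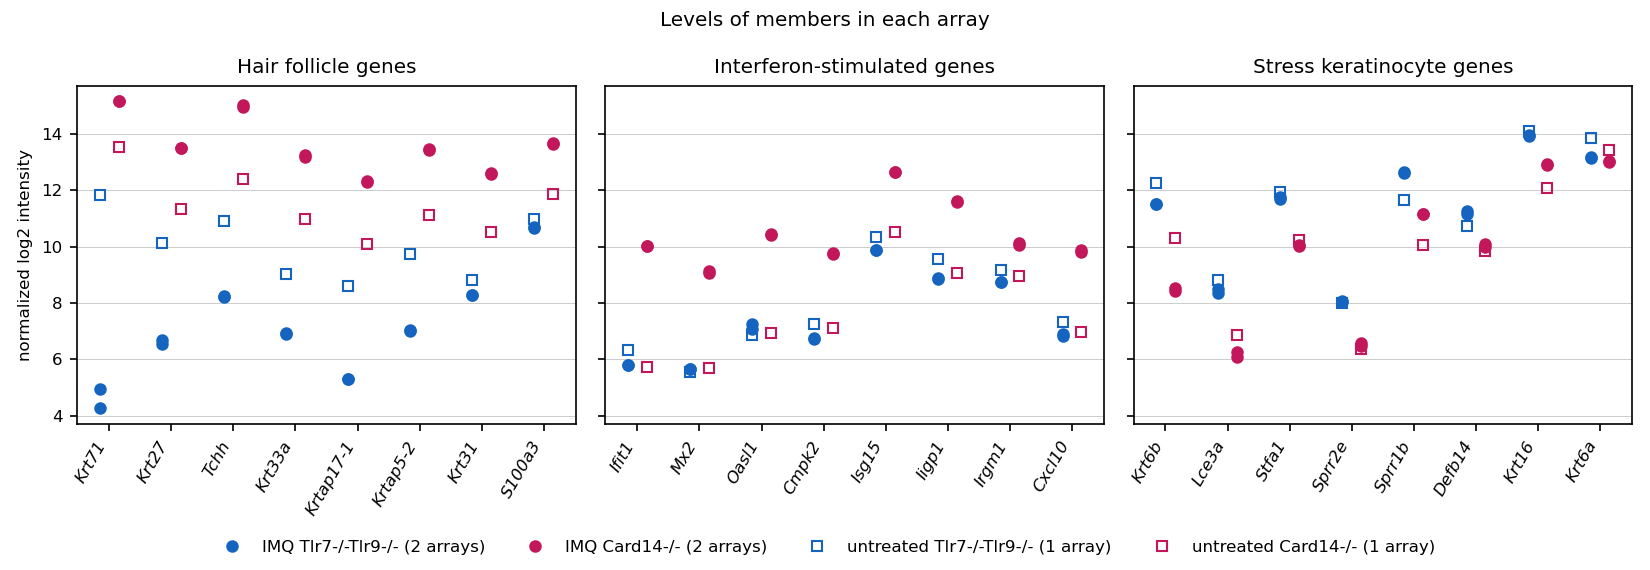
Normalized log2 intensity of described genes (y axis, genes along the x axis) on each of the 4 IMQ arrays and on the untreated array of each genotype, in panels for follicle, interferon and stress keratinocyte genes. Repeat arrays lie nearly on top of each other, such as 13.49 and 13.50 for Krt27 in Card14-/-.

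Interferon-stimulated genes were another group that was higher in Card14-/-. Of 39 tested genes of this list 19 were higher and 0 lower, and of 17 tested interferon-gamma-type GTPases, which attack vacuoles of intracellular pathogens, 9 were higher and 0 lower. Of all genes tested 1.22% were higher and 0.237% lower. The list medians were 1.01 and 1.30 against -0.03 over all genes. All 28 called genes were above background on all 4 arrays, and their median difference was 1.94. The called genes numbered 14 and 15 without Tlr7-/-Tlr9-/- replicates 1 and 2, 2 without Card14-/- replicate 1 and 0 without Card14-/- replicate 2.

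Ifit1, which binds viral RNA and blocks its translation and whose probe lies at chr19:34723827-34723886 (mm9), read 5.81 and 5.80 in Tlr7-/-Tlr9-/- and 10.02 and 10.03 in Card14-/-. It had the largest difference of the list, 4.22 ± 0.03 (SE; 18.7-fold, adjusted p = 0.000557), with both groups far apart. Mx2, a dynamin-like antiviral GTPase, read 5.66 and 5.65 against 9.08 and 9.16 (3.46 ± 0.04, 11-fold, adjusted p = 0.00109). Mx1 read 5.17 and 4.96 against 8.42 and 8.51 (3.40 ± 0.10, 10.6-fold, adjusted p = 0.00543). Isg15, a ubiquitin-like modifier whose probe lies at chr4:155573649-155573708 (mm9), read 9.88 and 9.88 against 12.65 and 12.67 (2.78 ± 0.03, 6.87-fold, adjusted p = 0.00092). None of these genes overlapped between the groups. Rsad2, which encodes the antiviral enzyme viperin, read 5.25 and 5.89 against 9.23 and 9.34 (3.72 ± 0.26, adjusted p = 0.0274), and another of its probes differed by 5.78. Oasl1 was higher by 3.26 ± 0.07 (9.55-fold, adjusted p = 0.00353) and Cmpk2, a nucleotide kinase next to Rsad2, by 3.00 ± 0.04 (8.03-fold, adjusted p = 0.00122). Ifit3 was higher by 2.38 ± 0.04 (adjusted p = 0.002) and Ifit2 by 1.89 ± 0.05 (adjusted p = 0.00546). Usp18, which removes ISG15 and restrains interferon receptor signalling, was higher by 2.27 ± 0.06 (adjusted p = 0.00486). Oasl2 was higher by 1.83 ± 0.06 (adjusted p = 0.0062) and Zbp1, a sensor of Z-form nucleic acid, by 1.21 ± 0.06 (adjusted p = 0.0141), and by 2.10 on another of its probes.

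Among the GTPases, Iigp1 read 8.85 and 8.89 in Tlr7-/-Tlr9-/- and 11.61 and 11.58 in Card14-/- (2.73 ± 0.04, 6.62-fold, adjusted p = 0.00115). Tgtp2 was higher by 2.49 ± 0.09 (adjusted p = 0.009), Ifi47 by 2.30 ± 0.10 (adjusted p = 0.0113), Gbp4 by 1.65 ± 0.05 (adjusted p = 0.00684) and Igtp by 1.55 ± 0.05 (adjusted p = 0.00593). Irgm1, which regulates the other immunity-related GTPases, was higher by 1.35 ± 0.05 (adjusted p = 0.00767) and Irgm2 by 1.33 ± 0.08 (adjusted p = 0.0202). Gbp3 was higher by 1.07 ± 0.07 (adjusted p = 0.0255). Gbp2 and Gbp6 stayed under a threshold, with 0.95 ± 0.06 (adjusted p = 0.0247) and 0.97 ± 0.12 (adjusted p = 0.0569). The probes of Gbp5 disagreed, with 0.09 on the one used and 2.41 on another.

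Among genes that carry the interferon signal, Irf7, the transcription factor downstream of TLR7 and TLR9, read 11.39 and 11.28 against 12.51 and 12.53 (1.19 ± 0.05, 2.28-fold, adjusted p = 0.0131). Stat2 and Irf9, factors downstream of the type I interferon receptor, differed by 0.86 ± 0.07 (adjusted p = 0.0359) and 0.61 ± 0.04 (adjusted p = 0.02), both under the size limit, and another probe of Stat2 by 0.23. The cytosolic RNA sensors Ddx58 and Ifih1 differed by 0.71 ± 0.04 (adjusted p = 0.0177) and 0.60 ± 0.07 (adjusted p = 0.053) on the probes used, and by up to 1.64 and 2.07 on other probes of the same genes. In the list of TLR and interferon signalling genes, 2 of 35 were higher and 0 lower, with a median of 0.01. The 2 were Tlr7 itself and Tlr1, a receptor of bacterial lipopeptides that was at least 2.18-fold higher (adjusted p = 0.0382).

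The promoters of Ifit1 and Isg15, both with large and closely repeated differences, are shown for the sequence that factors with STAT2 and IRF9 are known to bind. Capitals mark the core of the interferon-stimulated response element, searched as GAAA followed by any 2 bases and GAAA again, on both strands, so that it reads with TTTC on the opposite one. Ifit1 lies on the plus strand at chr19:34640639-34640938 (GRCm38.p6, from RefSeq), with 2 matches, the first at -104. Isg15 lies on the minus strand at chr4:156200769-156201068, with 3 overlapping matches, the first at -78.
Ifit1: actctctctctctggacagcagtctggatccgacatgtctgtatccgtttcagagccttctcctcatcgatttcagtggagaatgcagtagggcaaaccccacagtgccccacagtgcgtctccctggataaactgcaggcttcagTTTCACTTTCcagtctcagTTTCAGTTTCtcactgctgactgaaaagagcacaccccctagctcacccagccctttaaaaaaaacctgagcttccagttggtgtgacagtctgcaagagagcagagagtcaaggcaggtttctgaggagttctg
Isg15: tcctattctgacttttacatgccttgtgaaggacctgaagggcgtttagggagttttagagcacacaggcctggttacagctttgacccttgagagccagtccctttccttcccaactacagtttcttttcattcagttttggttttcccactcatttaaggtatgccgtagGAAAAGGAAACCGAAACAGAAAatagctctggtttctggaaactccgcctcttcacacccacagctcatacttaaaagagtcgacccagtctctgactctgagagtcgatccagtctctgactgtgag

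This core stood in 14 of 27 promoters of the interferon-stimulated list (51.9%) and in 8 of 9 of the GTPase list (88.9%), against 3.49% of all 27025 promoters. Among all genes higher in Card14-/- with a promoter sequence it stood in 26 of 200 (13%), and among those lower in 0 of 36. A missing match says only that these letters are not in the window.

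Chemokines that recruit monocytes and lymphocytes were partly higher in Card14-/-, with 5 of 27 tested genes called and 0 lower. The shares over all genes tested were 1.22% higher and 0.237% lower. Cxcl10, an interferon-induced ligand of CXCR3 on T cells, read 6.89 and 6.83 in Tlr7-/-Tlr9-/- and 9.80 and 9.88 in Card14-/- (2.98 ± 0.05, 7.91-fold, adjusted p = 0.002). Ccl12, a CCR2 ligand, read 8.10 and 8.24 against 10.17 and 10.11 (1.97 ± 0.07, 3.92-fold, adjusted p = 0.00751). Neither gene overlapped between the groups. Ccl7, another CCR2 ligand, was higher by 1.19 ± 0.07 (adjusted p = 0.0196), and Ccl3, a chemokine of macrophages, by 2.10 ± 0.08 (adjusted p = 0.00992). Ccl4 was above background on 1 of the 2 Tlr7-/-Tlr9-/- arrays and was higher by 2.62 ± 0.09 (adjusted p = 0.00874). Ccl2 differed by 0.91 ± 0.03 (adjusted p = 0.00895), under the size limit, and Ccl5 by 0.14 ± 0.06 (adjusted p = 0.234). Of 4 tested neutrophil chemokines 0 were called (limma; 0 higher and 2 lower at an unadjusted p under 0.05, and 0 with the authors' deposited values). Cxcl1 among them differed by -0.42 ± 0.06 (adjusted p = 0.065).

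The called interferon genes differed little between the untreated arrays. Of the 28 called genes, 5 were above in untreated Card14-/- and 0 by at least 1, with a median of -0.17. Ifit1 stood 0.63 lower in untreated Card14-/- than in untreated Tlr7-/-Tlr9-/-. Relative to its own untreated array, the median of the 28 genes was 1.80 in Card14-/- and -0.42 in Tlr7-/-Tlr9-/-, and 23 of them lay at least 1 above the untreated array in Card14-/-. Between the single arrays of IMQ WT and IMQ Tlr7-/-, which this comparison does not use, all 28 genes were at least 1 above in WT (median 2.46), and Ifit1 differed by 5.09. The 39 interferon-stimulated genes had a median level of 8.92 and 8.97 in IMQ Tlr7-/-Tlr9-/- and 10.02 and 10.03 in IMQ Card14-/-. On the other slide it was 10.69 in IMQ WT, 9.71 in IMQ Tlr9-/- and 9.15 in IMQ Tlr7-/-. Slide and genotype cannot be told apart between these sets of arrays.

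**Figure D3:**
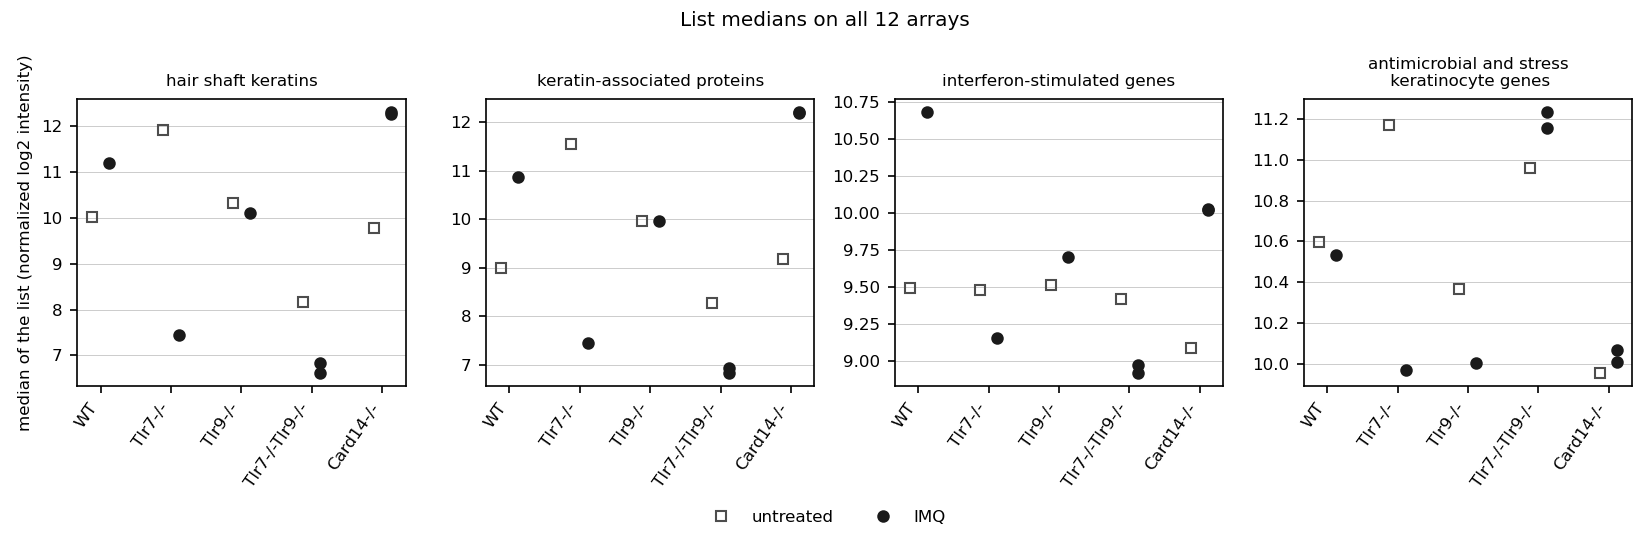
Median normalized log2 intensity of a list (y axis) on each of the 12 arrays by genotype (x axis), untreated and IMQ, for hair shaft keratins, KAPs, interferon-stimulated genes and stress keratinocyte genes; each point is 1 array. For hair shaft keratins IMQ Card14-/- (12.31 and 12.27) stands above every other array, and IMQ Tlr7-/-Tlr9-/- (6.62 and 6.83) below every other. These arrays lay on 1 slide and all others on another, so slide may add to such rankings.

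The genes lower in Card14-/- included antimicrobial and stress keratinocyte genes, which inflamed or wounded epidermis makes. Of 38 tested genes 12 were lower and 1 was higher in Card14-/-, against 0.237% and 1.22% of all genes tested. The list median was -0.39 against -0.03 over all genes. All 12 were above background on all 4 arrays, with a median difference of -1.35. Krt6b, a keratin of wounded and inflamed epidermis and of the follicle's companion layer whose probe lies at chr15:101506492-101506551 (mm9), read 11.52 and 11.50 in Tlr7-/-Tlr9-/- and 8.42 and 8.55 in Card14-/-. It was lower by 3.02 ± 0.06 on the log2 scale (SE; 8.14-fold, adjusted p = 0.00255), and its groups were far apart. Lce3a, a late cornified envelope protein of damaged epidermis, read 8.35 and 8.50 against 6.09 and 6.26 (-2.25 ± 0.10, 4.76-fold lower, adjusted p = 0.0113). Stfa1, a stefin that inhibits cathepsins, read 11.71 and 11.75 against 10.05 and 10.01 (-1.70 ± 0.04, 3.24-fold lower, adjusted p = 0.00353). Neither of the 2 overlapped between the groups. The list held 1 lower gene when either Tlr7-/-Tlr9-/- array was left out and 0 when either Card14-/- array was.

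The small proline-rich proteins, which are crosslinked into the cornified envelope, gave 6 of the 12. Sprr2e, whose probe lies at chr3:92157288-92157347 (mm9), read 8.06 and 8.06 in Tlr7-/-Tlr9-/- and 6.48 and 6.59 in Card14-/- (-1.52 ± 0.05, 2.88-fold lower, adjusted p = 0.00767). Sprr1b was lower (-1.46 ± 0.04, adjusted p = 0.00444), as were Sprr2i (-1.46 ± 0.04, adjusted p = 0.00593), Sprr2f (-1.24 ± 0.13, adjusted p = 0.0484), Sprr2d (-1.01 ± 0.04, adjusted p = 0.00916) and Sprr2h (-1.01 ± 0.08, adjusted p = 0.0343). The Sprr2 genes are near-identical copies, and a probe may read more than 1. Sprr1a went the other way under the size limit, with 0.48 ± 0.04 (adjusted p = 0.0386). Defb14, a beta-defensin, read 11.15 and 11.26 against 10.08 and 10.00 (-1.17 ± 0.06, adjusted p = 0.0168). Slpi, a protease inhibitor with antimicrobial action, was lower on the probe used (-1.10 ± 0.03, adjusted p = 0.00581), while another of its probes differed by -0.30. Krt16, the type I partner of the KRT6 keratins, read 13.92 and 13.95 against 12.92 and 12.92 (-1.02 ± 0.03, adjusted p = 0.00767).

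Members of the list that share functions with these did not all follow. Krt6a, next to Krt6b in the genome, differed by -0.13 ± 0.04 (adjusted p = 0.183). S100a8, a subunit of calprotectin, differed by 0.92 ± 0.08 (adjusted p = 0.034), under the size limit. S100a7a, the psoriasin gene, was the one higher member, at least 1.84-fold against arrays below background (adjusted p = 0.00155). Normexp background correction left 8 lower genes in the list, and the authors' deposited values left 9.

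The promoter of Sprr2e stands for the lower group. It lies on the plus strand at chr3:92351893-92352192 (GRCm38.p6, from RefSeq), and the capitals mark TATAAA at position -29. Of 30 promoters of the list 11 held it (36.7%).
Sprr2e: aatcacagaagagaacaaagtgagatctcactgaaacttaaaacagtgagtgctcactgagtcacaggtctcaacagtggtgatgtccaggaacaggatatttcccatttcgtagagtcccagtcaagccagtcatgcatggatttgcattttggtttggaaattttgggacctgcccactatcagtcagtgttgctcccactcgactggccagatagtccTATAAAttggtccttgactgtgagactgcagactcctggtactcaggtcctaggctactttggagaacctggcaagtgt

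The stress keratinocyte difference was as large between the untreated arrays as after imiquimod. All 12 called genes were below in untreated Card14-/- as well, 9 of them by at least 1, and the median was -1.48 untreated against -1.35 after imiquimod. For 6 of the 12 the untreated difference was the larger. Krt16 differed by -2.03 untreated and by -1.02 after imiquimod, Stfa1 by -1.72 and -1.70, and Sprr2e by -1.65 and -1.52. Krt6b differed by -1.92 untreated and -3.02 after imiquimod. The list median over all 38 genes was 10.96 in untreated Tlr7-/-Tlr9-/- and 9.96 in untreated Card14-/-, and 11.16 and 11.24 against 10.07 and 10.01 after imiquimod. In IMQ WT, IMQ Tlr9-/- and IMQ Tlr7-/-, which lay on the other slide, it was 10.53, 10.00 and 9.97. Between IMQ WT and IMQ Tlr7-/-, 0 of the 12 genes were at least 1 below in WT, and their median was 0.59 with WT above. Krt6b stood 3.95, Sprr2f 1.92 and Lce3a 1.19 above in WT, opposite in sign to their Card14-/- minus Tlr7-/-Tlr9-/- differences. Sprr2f was below background in IMQ Tlr7-/-.

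**Figure D4:**
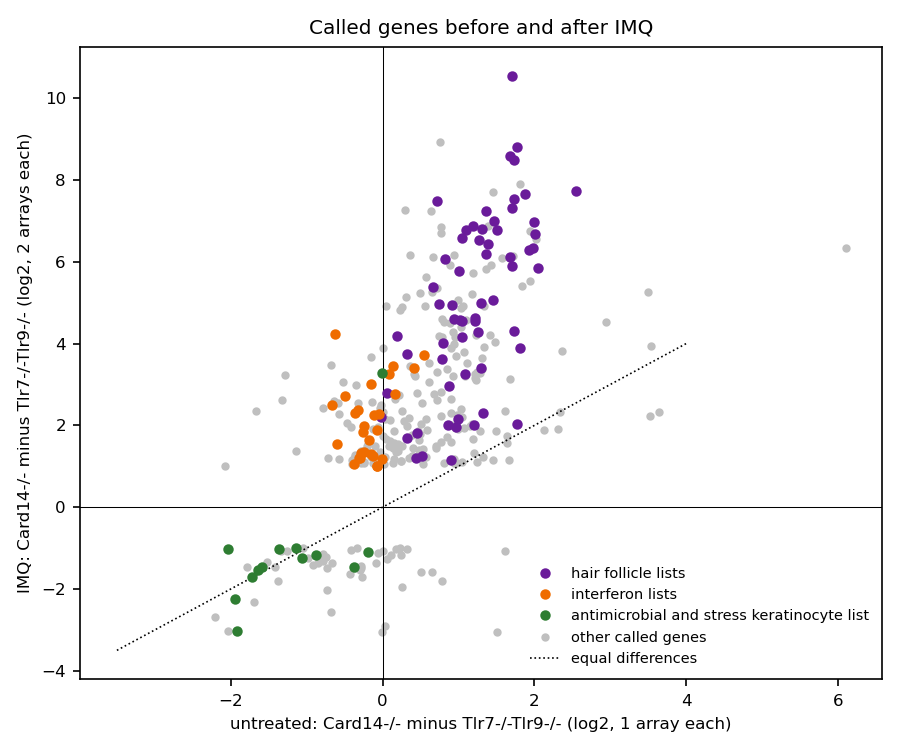
For each called gene, the difference Card14-/- minus Tlr7-/-Tlr9-/- between the untreated arrays (x axis, log2, 1 array each) and between the IMQ arrays (y axis, log2, 2 arrays each). Coloured points mark the 3 groups of lists and grey points the other called genes. The dotted line marks equal differences. Interferon genes lie near 0 on the x axis (median -0.17), follicle genes to its right (median 1.22), and stress keratinocyte genes near the dotted line (medians -1.48 and -1.35).

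Over all called genes, 102 of the 293 higher genes (34.8%) were at least 1 above in untreated Card14-/- too, against 2.05% of all genes, and 19 of the 57 lower genes (33.3%) were at least 1 below, against 1.28%. The response difference, which subtracts each genotype's untreated array and assumes that these single arrays vary like the repeat IMQ arrays, was higher in Card14-/- for 184 genes (0.765%) and lower for 77 (0.32%). Leaving out any 1 of the 4 IMQ arrays left 0 of these calls, so they rest on all 4. Krt27 had a response difference of 5.70 ± 0.10 (adjusted p = 0.00471) and Ifit1 of 4.85 ± 0.06 (adjusted p = 0.00442). Krt6b had one of -1.10 ± 0.10 (adjusted p = 0.0675), and Sprr2e of 0.12 ± 0.09 (adjusted p = 0.479). Krt16 had a response difference of 1.02 ± 0.06 (adjusted p = 0.0382), opposite in sign to its difference after imiquimod. For Card14 and Tlr7 themselves it was -0.42 ± 0.07 (adjusted p = 0.106) and -0.01 ± 0.13 (adjusted p = 0.971). Among the 293 higher genes, 225 (76.8%) were at least 1 above in IMQ WT than in IMQ Tlr7-/-, against 3.64% of all genes, and among the 57 lower genes 5 (8.77%) were at least 1 below, against 2.61%.

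Among genes of the CARD14 pathway and NF-kB early response genes, only Card14 itself passed both limits. Of 21 tested CARD14 family members and partners 1 was called, Card14 itself, with a list median of 0.02. Bcl10 read 12.22 and 12.11 in Tlr7-/-Tlr9-/- and 12.23 and 12.21 in Card14-/- (0.06 ± 0.05, adjusted p = 0.553). Malt1, the protease of the complex, read 9.79 and 9.92 against 9.89 and 9.86 (0.02 ± 0.06, adjusted p = 0.876), and its other probes differed by -0.19 to 0.56. The groups overlapped for both genes. Of 35 tested NF-kB early response genes 0 were called by limma, also with the authors' deposited values or an intensity trend. At an adjusted p under 0.05 alone, 7 were higher and 2 lower, all under the size limit. Among all 24068 genes these numbers were 611 and 440. At an unadjusted p under 0.05, 13 of the 35 were higher and 7 lower, and of all 24068 genes 2848 and 3810. By either p, the shares in both directions were larger in the list than over all genes. The response difference was called higher for 2 of the 35 and lower for 0. The differences of this list ran from -0.53 to 0.94, with a median of -0.01. The median level of the list was 8.58 in untreated Tlr7-/-Tlr9-/- and 10.42 and 10.40 after imiquimod. In Card14-/- it was 8.52 untreated and 10.30 and 10.35 after imiquimod. Both genotypes thus stood above their untreated arrays, which lay on another slide, so small differences between them are no sign of a missing response. Nfkbia, the inhibitor that NF-kB induces as feedback, read 15.30 and 15.28 against 15.34 and 15.39 (0.08 ± 0.04, adjusted p = 0.29). Tnfaip3, the A20 feedback gene, differed by 0.26 ± 0.04 (adjusted p = 0.0649), Tnf by -0.10 ± 0.06 (adjusted p = 0.388) and Il6 by 0.89 ± 0.20 (adjusted p = 0.117). Ccl20, the CCR6 ligand that draws IL-17-producing T cells, read 11.52 and 11.46 against 10.98 and 10.94, without overlap, and differed by -0.53 ± 0.04 (adjusted p = 0.0325), under the size limit. A p that misses the threshold does not show that levels are equal. In simulated data of this design with 200 changed genes, 74% were recovered at a true log2 difference of 1.2 and 85.5% at 2. The simulated noise was that between repeat arrays only, without spread between pools or animals.

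Cytokine families of the psoriasis axis were likewise not called. Of 21 tested IL-1 and IL-36 family genes and of 18 tested IL-17, IL-20 and IL-6 family genes 0 passed in limma, with the authors' deposited values and with an intensity trend. At an unadjusted p under 0.05 they held 5 higher and 5 lower, and 4 higher and 2 lower genes. The medians of the 2 lists were -0.03 and -0.11. Il1b, a cytokine of the inflammasome, differed by -0.16 ± 0.06 (adjusted p = 0.216) on the probe used and by -1.48 on another, and Il1a by 0.10 ± 0.06 (adjusted p = 0.352). Of 39 immediate early genes 1 was higher, Dusp2, a phosphatase of MAP kinases, with 9.37 and 9.39 against 10.59 and 10.53 (1.18 ± 0.04, adjusted p = 0.00783). For all genes tested the shares were 1.22% higher and 0.237% lower, so 1 call in a list says little about the list. Of 47 keratinocyte differentiation genes 3 were higher and 0 lower. They were Tchh, its relative Tchhl1 (4.93 ± 0.05, adjusted p = 0.000799) and Sprr4 (1.54 ± 0.08, adjusted p = 0.0145). Of 11 basal keratinocyte genes 0 were called (2 higher and 0 lower at an unadjusted p under 0.05).

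**Figure D5:**
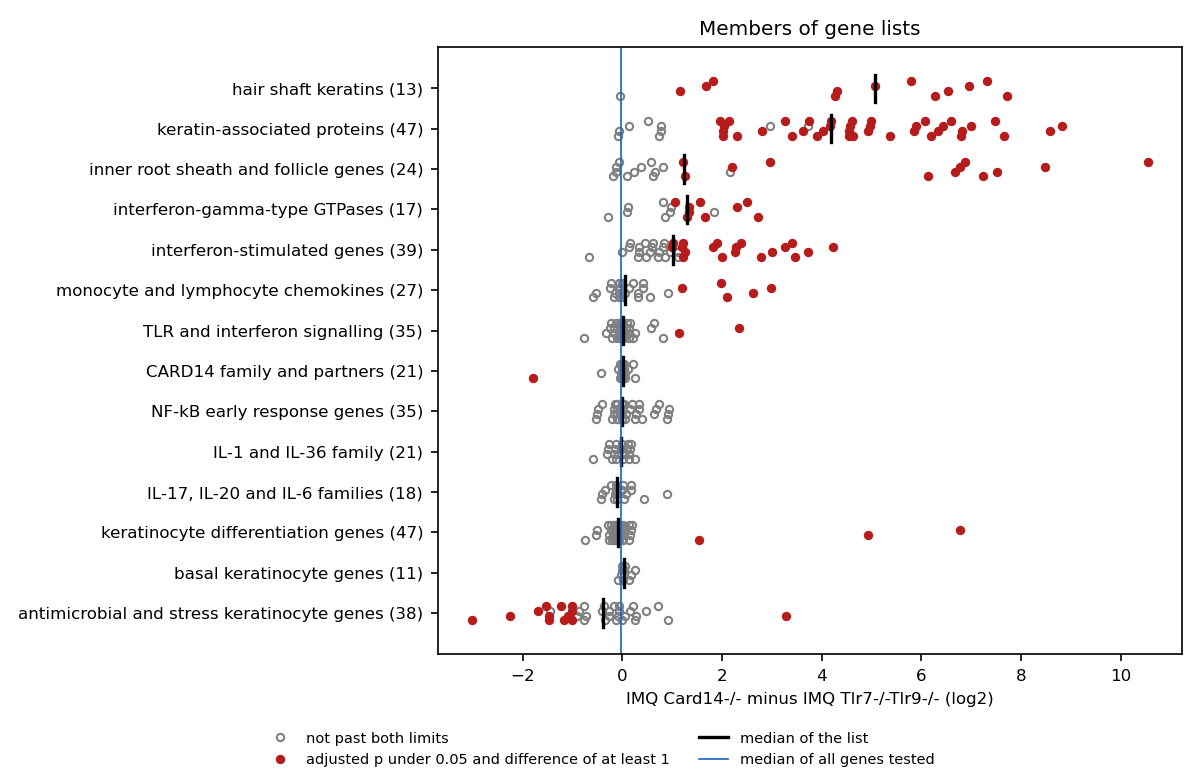
Difference IMQ Card14-/- minus IMQ Tlr7-/-Tlr9-/- (x axis, log2) of every tested member of the named lists (y axis, number of members in brackets), with the median of each list and the blue line at the median of all genes (-0.03). Hair shaft keratins (median 5.07) and KAPs (4.19) spread farthest to the right, and the NF-kB early response genes lie around the line (-0.01).

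Markers of the other cells of ear skin showed few calls. Among all 24068 genes 1.22% were called higher and 0.237% lower, so 1 call in a short list says little about the list. At an unadjusted p under 0.05 (limma), 2848 of all genes were higher and 3810 lower. Of 19 monocyte and macrophage markers 1 was higher, the high-affinity Fc receptor gene Fcgr1 (1.21 ± 0.12, 2.32-fold, adjusted p = 0.0445), itself an interferon-inducible gene, and the list median was -0.06. Of 12 neutrophil markers Fpr2 was higher (1.26 ± 0.07, adjusted p = 0.0174) and Mpo lower (-1.37 ± 0.07, adjusted p = 0.0141). Of 8 NK cell markers 1 was called, Klre1, at least 2.96-fold higher against arrays below background (adjusted p = 0.00637). Of 11 T cell markers 0 were called (2 higher and 2 lower at an unadjusted p under 0.05). Of 12 melanocyte markers 0 were called, and their median was 0.47, with 8 higher and 0 lower at an unadjusted p under 0.05. Their summed signal was 13.27 and 13.26 on the log2 scale in Tlr7-/-Tlr9-/- and 13.78 and 13.74 in Card14-/-. Melanocytes of the growing hair bulb pigment the shaft, and Tyrp1, a melanin enzyme, differed by 0.76 ± 0.05 (adjusted p = 0.0198), under the size limit. Of 20 collagen genes 0 were called, with a median of 0.30, 16 higher and 2 lower at an unadjusted p under 0.05. The 14 fibroblast markers had a median of 0.26 and 0 calls, and the 14 adipocyte genes had a median of -0.27, all 14 below 0, and 0 calls. Of 33 cell cycle genes 0 were called, and 19 were lower at an unadjusted p under 0.05 (median -0.20). What these small shifts contribute to the larger differences was not tested.

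Of the called genes with a name, 89 higher and 29 lower genes stood in no list. Apoc3, an apolipoprotein whose probe lies at chr9:46041134-46041193 (mm9), read 8.60 and 8.59 in Tlr7-/-Tlr9-/- and 5.82 and 6.01 in Card14-/- (-2.68 ± 0.08, 6.41-fold lower, adjusted p = 0.0062). Its other probes differed by -3.03 to -0.19. Its level was also high in untreated Tlr7-/-Tlr9-/- (8.07), untreated Tlr9-/- (7.96) and IMQ Tlr9-/- (7.43), and no higher than 6.16 on the other arrays. Abhd14b, at chr9:106355187-106355246 (mm9) and near Tlr9, differed by 1.89 ± 0.06 (3.69-fold, adjusted p = 0.00687) and by 2.13 between the untreated arrays. Abhd14b was low on the 5 arrays of Tlr9-/- and Tlr7-/-Tlr9-/- mice, where it read 10.39 to 10.89, and high on the 7 others, where it read 12.30 to 12.72. Within 10 Mb of Tlr9, 4 of 281 tested genes were higher in Card14-/- and 1 was lower, where 1.22% and 0.237% of all genes were. Within 10 Mb of Card14, 2 of 267 were higher, Otop2 among them, and 0 lower. Within 10 Mb of Tlr7, 1 of 72 was higher and 0 lower. These windows do not count the targeted gene itself.

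Several genes outside the lists were also lower in Card14-/-. Pon1, a serum paraoxonase, was lower (-1.96 ± 0.13, adjusted p = 0.0253), as were Chga, the secretory granule protein chromogranin A (-1.71 ± 0.03, adjusted p = 0.00235), Nmrk2, a kinase of the NAD pathway (-1.59 ± 0.06, adjusted p = 0.00928), and Pde5a, a cyclic GMP phosphodiesterase (-1.58 ± 0.08, adjusted p = 0.015). Cyp2e1, a cytochrome P450, read 11.98 and 11.99 against 10.38 and 10.51 (-1.54 ± 0.06, 2.90-fold lower, adjusted p = 0.00992). Nmu, which encodes the neuropeptide neuromedin U, was lower (-1.50 ± 0.12, adjusted p = 0.0324). With Card14-/- arrays below background, Ibsp, Rxfp4, Krt76 and Prss42 were lower by at least 2.77-fold, 2.44-fold, 1.76-fold and 1.61-fold (adjusted p = 0.0434, 0.0222, 0.0174 and 0.00486). Higher genes outside the lists included Otop2, a proton channel (3.30 ± 0.15, adjusted p = 0.012). Within other lists, Chac1, a glutathione-degrading enzyme of the unfolded protein response, was higher by 1.68 ± 0.03 (3.19-fold, adjusted p = 0.00246), Btc, an EGF receptor ligand, by 1.08 ± 0.03 (adjusted p = 0.00697), and Ahsp, the haemoglobin chaperone, by at least 2.43-fold (adjusted p = 0.0229).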

How the data were processed

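Ear skin RNA was hybridized to 12 single-colour arrays of 60-base probes, of which this comparison uses 4, 2 of IMQ Card14-/- and 2 of IMQ Tlr7-/-Tlr9-/-. Groups were taken from the sample labels. The scanner files hold spot intensity, written by Agilent Feature Extraction 10.7.3.1 per the file headers, whereas version 10.5.1.1 stands in the submitters' processing notes. Per the file headers, the processed signal used here had its background and spatial trend removed within each array. A deposited series-wide set of log2 values, which the authors made by background subtraction and a between-array normalization with limma per the series' design text, served as an alternative.

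The log2 processed signal was quantile normalized over the 12 arrays with limma 3.58.1 (R 4.3.3, package data.table in version 1.17.8; Python 3.11.15, numpy 2.4.6, pandas 2.3.3, matplotlib 3.10.9). Left out were 235 probes whose spots were all outliers on an array. A probe entered if 2 or more of the 12 arrays had it well above background (37125 probes), and the brightest such probe on average stands for its gene (24068 genes, of which 16102 carry a gene symbol). Of 56605 probes that are not controls, 33903 were named through a RefSeq accession, 9946 by symbol or synonym, and 12756 keep the name in the file. Probe positions are those of the files (mm9). Promoters come from RefSeq (GRCm38.p6), the first listed start of each gene. The lowest signal well above background, 3.95 to 4.38 on the log2 scale of the 4 arrays, set the bounds. The number of arrays limits the precision.

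The comparison was fitted with lmFit and eBayes on the 4 arrays (2 residual degrees of freedom), and the response difference on the 6 arrays of both genotypes. Single arrays gave values only. Data of this design were simulated with 200 changed genes among 24068 and with the noise between repeat arrays only, not between pools or animals. In them 74%, 85.5% and 95.5% were recovered at log2 differences of 1.2, 2 and 4, with 2 or 3 unchanged genes called. Named were the targeted genes, the 12 largest differences in each direction above background, the 5 largest bounds, up to 4 called members per list, called genes within 10 Mb of a targeted gene, and members whose role is described. Predicted models, clones and probes with a run of 15 purines or pyrimidines were passed over, and a few genes are not reported here. The comparison, its members and the 45 lists were chosen with earlier results of these data known.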

Additional observations from a re-analysis of the deposited data

Results flagged for a closer look

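The change from untreated to treated skin differed between the 2 genotypes for 184 genes that stood higher and 77 that stood lower in Card14-/-, by a limma contrast of the difference itself over 6 arrays. These calls rest on 1 untreated array per genotype and share the IMQ arrays with the comparison of the report, and leaving out any 1 IMQ array left 0 of them. The values below are log2 response differences, Card14-/- minus Tlr7-/-Tlr9-/-, each with an adjusted p under 0.05.

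Hair follicle genes gave the largest. Among inner root sheath genes they were 8.84 for Krt71, 6.76 for Krt25, 5.70 for Krt27, 4.45 for Krt28, 4.67 for Krt73, 5.26 for Tchh and 5.80 for Padi3, and 3.87 for the trichohyalin relative Tchhl1. Among hair shaft keratins they were 5.25 for Krt34, 4.35 for Krt33a, 2.58 for Krt31, 4.78 for Krt86, 3.61 for Krt83 and 1.36 for Krt81. Among KAP genes they were 7.03 for Krtap28-13, 5.79 for Krtap12-1, 5.54 for Krtap4-7, 5.52 for Krtap17-1, 5.50 for Krtap5-1, 5.05 for Krtap5-2 and 4.36 for Krtap11-1. Other genes of the follicle gave 4.54 for Vsig8, 3.22 for Dsg4, 2.29 for Fgf5, 2.23 for Krt75 and 2.09 for S100a3. For Krt71, Krt25, Krt73, Padi3, Krtap28-13, Krtap12-1, Dsg4 and Fgf5, at least 1 IMQ Tlr7-/-Tlr9-/- array was below background, so these sizes are not exact. Dsg4 and Fgf5 were below background on both untreated arrays as well.

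Interferon genes followed. Response differences were 4.85 for Ifit1, 3.32 for Mx2, 3.17 for Oasl1, 3.15 for Cmpk2, 2.98 for Mx1, 2.71 for Ifit3, 2.61 for Isg15, 2.38 for Usp18, 2.08 for Oasl2, 1.97 for Ifit2 and 1.51 for Zbp1. Among the GTPases they were 3.22 for Iigp1, 3.15 for Tgtp2, 2.67 for Ifi47, 2.15 for Igtp, 1.83 for Gbp4, 1.59 for Irgm1 and 1.54 for Gbp2. The chemokines gave 3.34 for Cxcl10, 2.38 for Ccl12, 1.91 for Ccl7 and 1.61 for Ccl2. Gbp2 and Ccl2 passed here and not between the IMQ arrays alone, where they stayed under the size limit.

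Of the remaining genes, Chac1 gave 1.63, Dusp2 1.03 and S100a7a 3.29, the last from a gene that, of the 6 arrays in this contrast, was above background on the 2 IMQ Card14-/- arrays alone, so its size is not exact. Krt16 gave 1.02, while its level after imiquimod was lower in Card14-/-. Lower responses in Card14-/- were -1.09 for Sprr2i, -1.44 for Chga, -2.10 for Nmrk2, -2.23 for Pde5a and -2.95 for Prss42, which was below background in IMQ Card14-/- and in both untreated arrays.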

How the results depend on the processing

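Against 293 higher and 57 lower genes, the counts stayed within 1.5 times of these under 75th percentile scaling, quantile normalization over the arrays of the fit, the mean over probes, no filter on dim probes, only probes above background on all arrays, an intensity trend, and a test without genes below background in both groups, an alternative chosen after seeing the data. Normexp background correction gave 214 higher and 22 lower, of which 208 and 21 were shared, and the authors' deposited log2 values gave 253 and 32, of which 240 and 28 were shared. Without the size limit there were 611 and 440, and testing against a difference of 1 with limma's treat gave 167 and 10. The additive fit of genotype and treatment on 10 group values, which averages untreated and treated skin, gave 3 and 2. Leaving out 1 array gave 0 to 175 higher and 0 to 23 lower genes, and 0 to 0 response differences in either direction. The response difference (184 and 77) gave 301 and 248 with an intensity trend, 356 and 389 without a filter, 202 and 122 with probes above background on all arrays, and 91 and 17 with treat. The cause of these changes was not tested beyond the fewer arrays and genes in each.

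With the replicate number as a block there were 100 higher and 1 lower genes, and 0 and 0 response differences. Whether the replicate number marks a pairing of arrays is not stated. The correlation of the deviations of same-numbered arrays was 0.0582. With 2 arrays per group both pairs must give the same value, so it cannot decide whether a block is needed. Among the 141 genes of the naming rule, signs turned for a few near 0. Il6 became -0.54 and Tlr9 0.11 in the additive fit, and Krt10 became -0.0394 and Nfkbia -0.0031 under 75th percentile scaling. Leaving out 1 array moved Malt1 between -0.0458 and 0.0807 and Tlr9 between -0.0402 and 0.0128. Signal over background limits the size of differences for the 71 higher genes not well above background on either Tlr7-/-Tlr9-/- array and the 8 lower genes not well above background on either Card14-/- array, and 4 higher and 5 lower calls had no array well above background. Of the single-array comparisons, at least 1 above or below between the untreated arrays were 494 and 309 genes, but 130 and 36 after normexp and 194 and 48 in the authors' deposited values. Between IMQ WT and IMQ Tlr7-/- they were 877 and 627, but 327 and 43 after normexp and 403 and 76 in the deposited values.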
